A study of Mus musculus with 16 samples.

Results

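The 91 genes described here are the heat shock proteins and the chaperones that work with them, out of 23479 genes counted in mouse CD4 T cells. They were taken by symbol. The rule took genes starting with Hsp, the J protein genes Dnaja, Dnajb and Dnajc, the subunits of the CCT chaperonin with Tcp1, the genes Bag1 to Bag6, the heat shock factors Hsf1 and Hsf2, and the adaptor Stip1. It left out Hspa5, Hsp90b1 and Hspg2. By known role the 91 genes comprised 3 genes for Hsp90 and its adaptor, 9 Hsp70 genes, 4 Hsp70 exchange factors, 6 BAG genes, 3 mitochondrial chaperones, 10 chaperonin genes and 9 small heat shock protein genes. The other members were 4, 13 and 28 J proteins of classes A, B and C, and the 2 heat shock factors. The rule is wider than a cytosolic set. Dnajb9, Dnajb11, Dnajc1, Dnajc3, Dnajc10 and Hspa13 encode proteins of the endoplasmic reticulum, Hspd1, Hspe1, Hspa9, Dnaja3, Dnajc15 and Dnajc19 encode mitochondrial proteins, and Hspb11 encodes a subunit of the intraflagellar transport machinery.

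RNA was sequenced from CD4 T cells of the spleen, collected with an immunomagnetic kit that removes other cells and leaves CD4 T cells untouched. All mice were of the C57BL/6 strain. The groups were 5 control mice without tumour (day 0), 7 mice taken 7 days after a transplant of Eu-Myc lymphoma cells, and 4 mice taken 14 days after it. Eu-Myc cells are malignant mouse B cells in which an immunoglobulin heavy chain enhancer drives the oncogene Myc. The labels give neither the age nor the sex of the hosts, nor the number of tumour clones, so all tumour-bearing mice may carry the same lymphoma. Because RNA was taken from bulk cells, fewer cells of a type and less RNA per cell cannot be told apart.

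Gene counts per library summed to 21610411 to 27340070 in control, 14493764 to 24916411 at day 7 and 14731908 to 17067236 at day 14. Every day 14 library thus had fewer counts than every control library. Members took 0.778% to 1.27% of the counts in control libraries, 0.797% to 1.04% at day 7 and 0.704% to 1.08% at day 14. Reads outside genes made up 47.1% to 56.7% in control, 54.6% to 68.0% at day 7 and 54.4% to 69.8% at day 14. Reads flagged as not uniquely aligned made up 8.74% to 10.1% in control, 6.88% to 7.91% at day 7 and 6.67% to 7.94% at day 14. Their part in the differences from control was not tested. Of 7 CD4 T cell markers, 6 were in the table. Cd4 held 781 to 1801.8 CPM (counts-per-million units, scaled by edgeR's trimmed mean of M values) in all 16 libraries, and Cd8a at most 3.0 CPM. Cd8a and Cd8b1, the 2 CD8 T cell markers, summed to 5.68 to 17.6 CPM. All 6 CD4 markers had log2 changes above 0 at day 7 (median 0.23) and below 0 at day 14 (median -0.26) against control, and none passed the test. Summed over 12 genes, markers of dividing cells reached 2256 and 4866 CPM in control libraries 1 and 2, against 522 to 800 CPM in the other 3 control libraries. Of these 12 genes, 12 were below control at day 7 (median log2 change -1.73) and 11 at day 14 (median -0.29), with none past the adjusted test. The 8 neutrophil markers in the table summed to 765 and 2326 CPM in these 2 control libraries and to 1385 CPM in day 14 library 4, and to at most 48.6 CPM in every other library. Of these 8, 3 were called lower at day 14 against control and 2 higher at day 14 against day 7. The 8 B cell markers summed to 13.2 to 78.2 CPM in control. At day 7 they summed to 15.5 to 33.2 CPM and at day 14 to 19.6 to 41.5 CPM. Of them 1 was called lower at day 14 against control. Macrophage and monocyte markers reached 192 and 512 CPM in control libraries 1 and 2, and at most 74.9 CPM elsewhere. Erythroid markers reached 54.8 and 165 CPM there, and at most 20.2 CPM elsewhere. The labels give no sex, but Xist, the RNA made from an inactive X chromosome, was at 0.637 to 9.32 CPM in 6 libraries and at 1625 to 2320 CPM in the other 10. The 6 comprised numbers 1 and 2 of control, 6 and 7 of day 7, and 1 and 4 of day 14. The low-Xist control libraries, 1 and 2, were thus also those with the most dividing-cell and neutrophil markers. In control, Xist state and these markers cannot be told apart. Refits on high Xist leave out both libraries, and refits on low Xist hold no other control library. The part of depth, CD4 marker level, other cell types, dividing cells or Xist state was not tested beyond the refits named below.

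Chaperones bind unfolded or partly folded proteins and help them reach, keep or regain their shape. The Hsp70 proteins work in cycles of ATP hydrolysis that J proteins start and exchange factors reset, and they pass clients to Hsp90 through the adaptor Stip1 or to the ring-shaped CCT chaperonin, which folds actin and tubulin. On heat or proteotoxic stress the transcription factor HSF1 binds heat shock elements, inverted repeats of a GAA unit, and raises the inducible members, among them Hspa1a, Hspa1b, Hsph1 and Dnajb1, while Hspa8 and Hsp90ab1 are made at all times. In T cells, activation and growth are known to raise the demand on these proteins.

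Promoter sequences of 74 of the 91 members, 94 promoters in all, were found in the RefSeq set for GRCm38.p6, of which the 250 bases before each transcription start were searched on both strands. The motif GAANNTTC or its other arrangement TTCNNGAA, the shortest form of a heat shock element, occurred in 20.2% of the 94 member promoters (17 members), against 12.8% of all 32851 promoters. A run of 3 alternating units occurred in 4.26% of member promoters, those of Dnajb6, Hspd1 and Hspe1, against 0.466% of all promoters. These 4 promoters cover only 2 separate stretches of sequence, since Dnajb6 is counted from 2 starts 81 bases apart and Hspd1 and Hspe1 share theirs. The CCAAT box was about as common in both, at 34.0% and 33.8%. The sequences are shown for the Hsp70 genes whose levels differed most between libraries (Hspa1a and Hspa1b), for Hsph1, for the promoter between Hspd1 and Hspe1, and for Cct5, the only one of the 4 genes that fell at day 14 with a match. Another listed Cct5 promoter and those of Dnaja2, Dnajc15 and Dnajc21 held no match. Every printed sequence holds a match, but the promoters of the inducible genes Dnajb1 and Bag3, and that of Stip1, held none. Hsp90aa1, Hsp90ab1, Hspa8 and Hsf1 had no promoter in the set. The printed sequences run in the direction of transcription, and capitals mark the matched motifs, which overlap in Hspe1. The coordinates are chr17:34972157-34972406 (minus strand), chr17:34959239-34959488 (minus), chr5:149636337-149636586 (minus), chr1:55087898-55088147 (plus) and chr15:31601847-31602096 (minus).
Hspa1a: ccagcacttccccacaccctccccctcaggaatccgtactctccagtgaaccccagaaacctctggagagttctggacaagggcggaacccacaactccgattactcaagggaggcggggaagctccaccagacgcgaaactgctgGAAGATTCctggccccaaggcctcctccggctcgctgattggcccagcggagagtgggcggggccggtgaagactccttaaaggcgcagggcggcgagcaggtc
Hspa1b: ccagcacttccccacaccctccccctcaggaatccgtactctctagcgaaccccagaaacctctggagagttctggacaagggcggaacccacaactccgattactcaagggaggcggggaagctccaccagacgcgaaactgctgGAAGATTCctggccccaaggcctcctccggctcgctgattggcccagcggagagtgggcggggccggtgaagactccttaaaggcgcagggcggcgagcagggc
Hsph1: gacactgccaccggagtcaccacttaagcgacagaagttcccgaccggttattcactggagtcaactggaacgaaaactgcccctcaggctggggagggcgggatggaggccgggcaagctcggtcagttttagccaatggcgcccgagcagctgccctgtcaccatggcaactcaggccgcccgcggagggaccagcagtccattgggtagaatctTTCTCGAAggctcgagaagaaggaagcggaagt
Hspe1: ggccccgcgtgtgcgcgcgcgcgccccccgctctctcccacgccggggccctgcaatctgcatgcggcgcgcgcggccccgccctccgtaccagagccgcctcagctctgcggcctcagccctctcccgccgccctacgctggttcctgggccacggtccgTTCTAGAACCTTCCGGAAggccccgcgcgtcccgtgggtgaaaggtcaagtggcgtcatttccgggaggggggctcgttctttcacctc
Cct5: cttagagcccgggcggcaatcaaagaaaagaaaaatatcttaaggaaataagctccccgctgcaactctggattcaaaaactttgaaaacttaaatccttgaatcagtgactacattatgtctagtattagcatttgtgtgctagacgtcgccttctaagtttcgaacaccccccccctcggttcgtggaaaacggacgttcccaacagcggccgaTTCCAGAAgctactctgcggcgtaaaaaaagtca
The Hspa1a and Hspa1b stretches were identical at 247 of 250 bases (98.8%) and held the motif at the same place, starting 104 bases before the start. In Hsph1 and Cct5 the motif started 33 and 34 bases before it. Hspe1 held 3 overlapping matches, starting 89, 84 and 79 bases before the start, and the window of Hspd1, on the opposite strand, covers the same stretch. A match is a description of letters, not evidence of binding.

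Of the 91 members, 83 passed the filter on low counts and were tested among 18430 genes. The other 8, Cct8l1, Dnajb7, Dnajb8, Dnajc22, Dnajc5b, Hspb2, Hspb3 and Hspb9, reached at most 0.575 to 1.40 CPM in their highest library. Per kilobase of exon, Hsp90ab1 was the highest member with a mean of 601 RPKM (CPM divided by exon length in kilobases) over all libraries, followed by Hspa8 with 222 RPKM and Hsp90aa1 with 145 RPKM. Cct2 had 94.0 RPKM, Dnajb9 85.9 RPKM and Hspe1 80.0 RPKM.

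At day 14, 4 members fell relative to control and none rose. They were Cct5, Dnaja2, Dnajc21 and Dnajc15, with log2 changes between -0.46 and -0.54. At day 7 no member passed the test against control in either direction, and none passed between day 14 and day 7. Smaller differences ran mostly downward, with 64 of 83 members below 0 at day 14 and 49 of 83 at day 7, beside 7792 and 8076 of all 18430 genes tested. Under library totals 48 of 83 members lay below 0 at day 14. The comparisons of both time points used the same 5 control libraries.

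Against control at day 14, the 4 lower members were 4.82% of those tested, where 1.80% of all genes were called lower by edgeR and 1.33% higher. At an unadjusted p under 0.05, 25 members were lower and 2 higher (Hspb7 and Hspbap1), against 11.8% and 10.5% of all genes. The libraries of the groups did not overlap for 3 lower members (Cct2, Dnajc15 and Dnajc9, background 2.85%) and 1 higher member (Dnajc16, background 5.24%). The median log2 change over the 83 members was -0.30, and that over all genes tested was 0.12. For the members it was -0.13 with libraries of high Xist alone and -0.49 with those of low Xist alone. Without control libraries 1 and 2 it was -0.16. Scaling by library totals in place of trimmed means moved the median over all genes to 0.32. Under it no member was called lower, beside 0.543% of all genes, and Dnajc16 and Hspbap1 were called higher, beside 3.79% of all genes. The members' median lay 0.42 below that of all genes under both scalings. A change of scaling moves all genes about alike, so it cannot alter this difference much. The difference was -0.31 with a stricter filter and -0.28 with libraries of high Xist alone. It was -0.64 with those of low Xist alone and -0.47 without control libraries 1 and 2.

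Against control at day 7, edgeR called 0 members in either direction at adjusted p under 0.05, beside 0.0109% of all genes called higher and 0% called lower. DESeq2 on the same counts called 15 members lower and 1 higher, beside 5.99% of all genes lower and 2.71% higher, and limma-voom called 0 members. Without control library 5, edgeR called 13 members lower and 1 higher, beside 5.58% and 2.33% of all genes. At an unadjusted edgeR p under 0.05, 22 members (26.5%) were lower and 1, Dnajc16, was higher, against backgrounds of 12.7% and 8.43%. The libraries did not overlap for Cct5, Dnajc15 and Dnajc9 among lower members (background 0.982%) and for Dnajc16 among higher ones (background 0.988%). The median log2 change was -0.13 over the members and 0.07 over all genes tested.

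Between day 14 and day 7, edgeR called 0 members in either direction, beside 0.412% of all genes called higher and 0.553% called lower. DESeq2 called 1 member lower, Dnajb9, beside 1.94% of all genes, and limma-voom called 0. At an unadjusted p under 0.05, 7 members were lower (Bag5, Dnajb1, Dnajb4, Dnajb5, Dnajb9, Hsf1 and Hspb11, background 8.27%) and Hspbap1 was higher (background 6.54%). No member's libraries were apart in either direction, against 1.77% of all genes for higher and 2.78% for lower. The median log2 change was -0.09 over the members and 0.12 over all genes, and under library totals the members' median was 0.068.

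**Figure D1:**
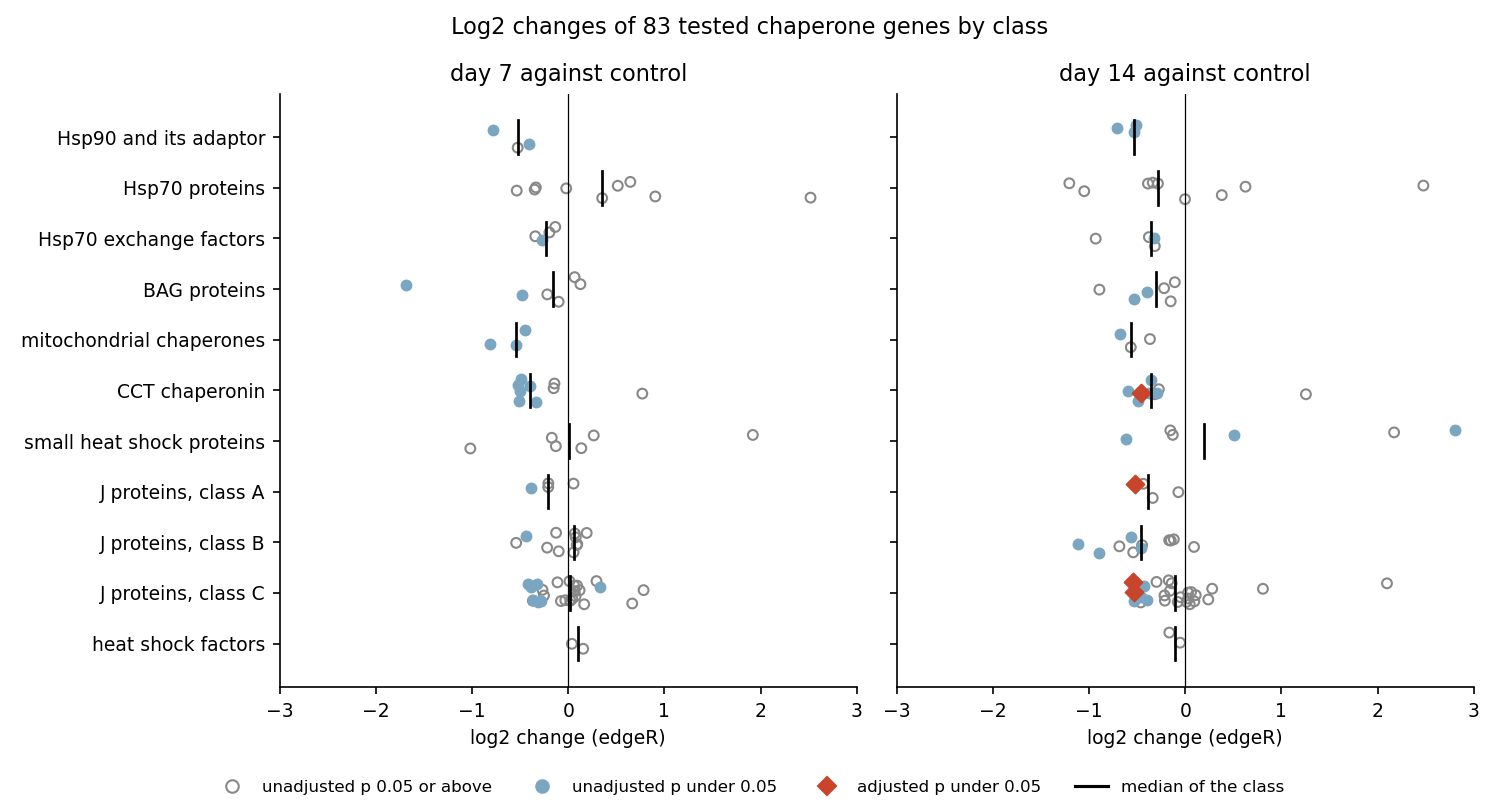
Fitted log2 changes (x axis) of the 83 tested members in their role classes (y axis), at day 7 against control on the left and at day 14 against control on the right; black bars are class medians. Red diamonds mark the 4 members that passed the adjusted test at day 14, and filled circles those with an unadjusted p under 0.05. Most points of the Hsp90, mitochondrial and CCT classes lie left of 0 in both panels.

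All 3 genes of Hsp90 and its adaptor were below control at both times, with class medians of -0.53 at day 7 and -0.53 at day 14, and none passed the adjusted test. Hsp90ab1, the constitutive Hsp90, had 2371, 2916, 2190, 2054 and 1497 CPM in control libraries, a median of 1631 CPM at day 7 (1412 to 2210 CPM), and 986, 2161, 1385 and 1670 CPM at day 14. The groups overlap, since control library 5 was lower than 2 day 14 libraries. Its log2 change was -0.51 ± 0.21 (SE) at day 14 against control, with an edgeR adjusted p of 0.162. Hsp90aa1, the inducible Hsp90, was highest at 1268 CPM in control library 2 and lowest at 240 CPM in day 14 library 1. Its log2 change at day 14 was -0.71 ± 0.29 (adjusted p = 0.166), but 0.02 with libraries of high Xist alone and -0.25 without control libraries 1 and 2.

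Stip1, which carries clients from Hsp70 to Hsp90, had 151, 190, 193, 190 and 110 CPM in control libraries. It had 69.8, 171, 93.8 and 126 CPM at day 14. At day 7 its libraries lay between 76.8 and 112 CPM with a median of 100.0 CPM. Its 7 day 7 libraries were below the control libraries except that control library 5, at 110 CPM, lay below the highest of them. The log2 change at day 7 was -0.78 ± 0.18 with an edgeR adjusted p of 0.071. With Xist state as a covariate, a refit chosen after seeing the data, the adjusted p was 0.0387, and with libraries of high Xist alone it was 0.0246 (1.10% and 1.11% of all genes were lower in these refits). With libraries of low Xist alone it was 0.259, and without control libraries 1 and 2 it was 0.301.

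**Figure D2:**
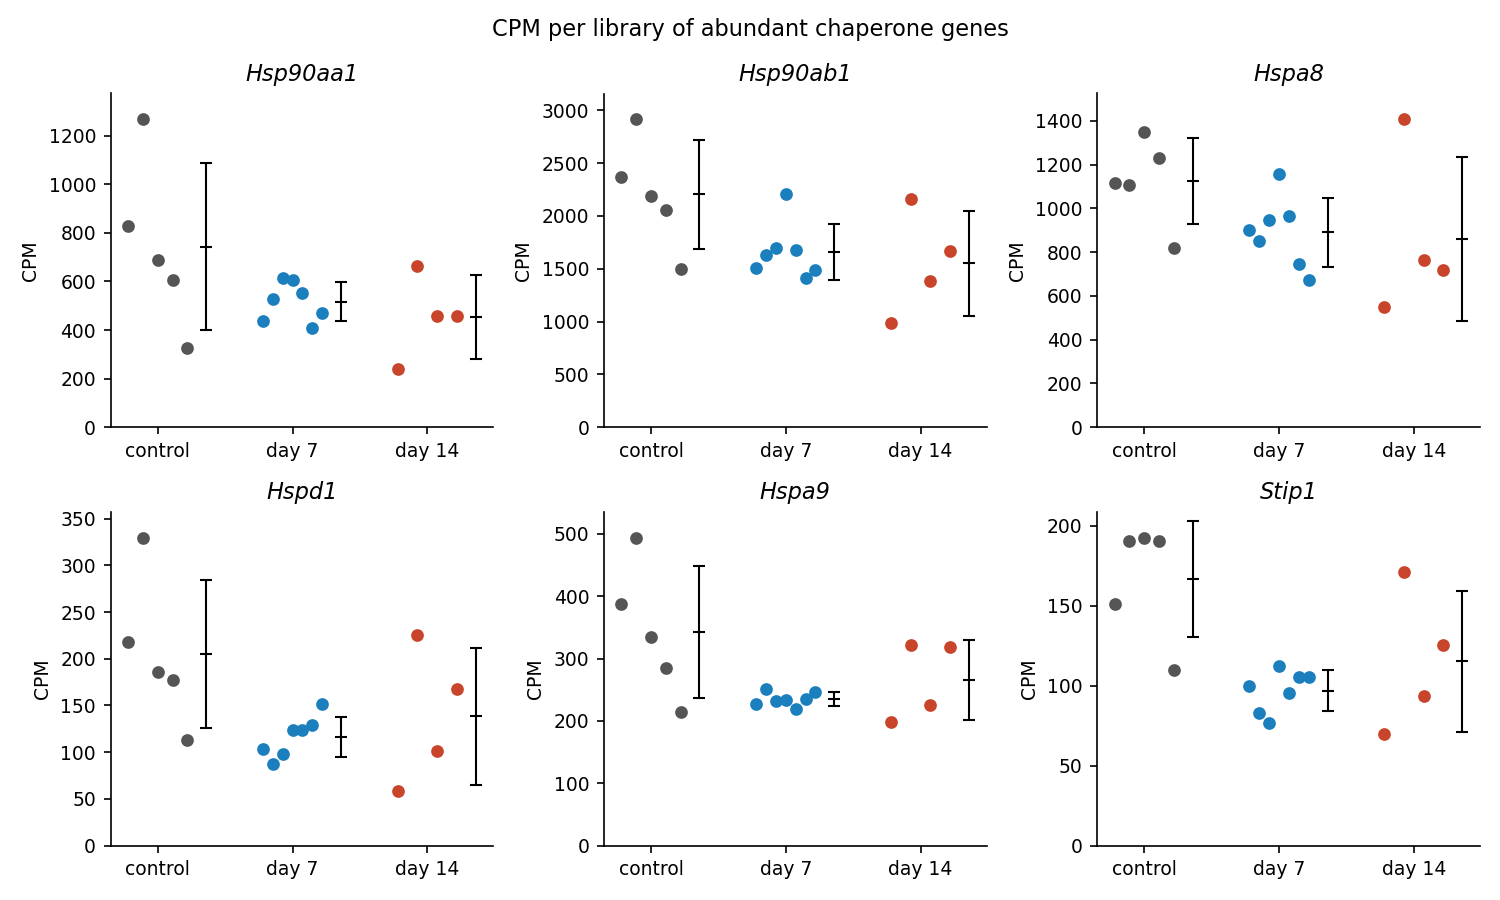
CPM (y axis) of 6 abundant members in each library, grouped as control, day 7 and day 14 along the x axis, with group mean and SD beside the points. Day 14 library 2 (the second red point) is the highest day 14 library for all 6 genes, and control library 2 reaches 1268 CPM for Hsp90aa1 and 330 CPM for Hspd1.

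Hspa8, the constitutive cytosolic Hsp70, averaged 1125 ± 197 CPM in control libraries (SD, n = 5), 891 ± 158 CPM at day 7 (n = 7) and 859 ± 376 CPM at day 14 (n = 4). Its 4 day 14 libraries ranged from 551 CPM in library 1 to 1408 CPM in library 2, which was above every control library. The log2 change at day 14 was -0.39 ± 0.22 against control (adjusted p = 0.298), within the spread between libraries. Hspa14, a ribosome-associated Hsp70, had a log2 change of -0.02 ± 0.08 at day 7, and all 4 of its day 14 libraries lay between 77.6 and 84.1 CPM. Hspa2, Hspa12a, Hspa12b, Hspa13 and Hspa1l did not pass the test at either time.

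The inducible Hsp70 genes Hspa1a and Hspa1b, neighbours on chromosome 17 (chr17:34969190-34972156 and chr17:34956436-34959238, GRCm38, minus strand), differed more between libraries of 1 group than nearly any other gene. Hspa1b had 3.37, 1.63, 152, 304 and 16.5 CPM in control libraries 1 to 5. At day 7 it had 25.4, 49.9, 181, 487, 299, 1.66 and 1.11 CPM in libraries 1 to 7. At day 14 it had 0.805, 154, 28.6 and 0.665 CPM in libraries 1 to 4. The highest library exceeded the lowest 187-fold within control, 438-fold within day 7 and 232-fold within day 14, and the groups overlapped throughout. Hspa1a, whose protein is nearly the same, had 0.112, 1.99, 30.4, 68.4 and 2.19 CPM in control libraries. It had 3.49, 9.93, 43.9, 122, 90.5, 0.131 and 0 CPM at day 7, and 1.21, 28.1, 5.56 and 0.907 CPM at day 14. Both genes were highest in the same libraries of each group, control library 4, day 7 library 4 and day 14 library 2.

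In every group the libraries with low Xist held the lowest Hspa1b. It was at 0.665 to 3.37 CPM (11 to 90 counts) in those 6 libraries and at 16.5 to 487 CPM in the 10 with high Xist. Of the 6, 5 also held Y-linked transcripts, which summed to 352 to 433 CPM, while day 14 library 1 held 0 CPM of them. The log2 change of Hspa1b was 0.65 ± 1.35 at day 7 and -1.05 ± 1.57 at day 14 against control, with adjusted p of 0.838 and 0.690. With libraries of high Xist alone the day 14 change was -0.81 ± 0.93 (adjusted p = 0.662). Such errors leave a change of several log2 units undetectable, so these values do not show that the groups are alike. Of 50-base stretches of the Hspa1b exons, 62.3% also occur in other genes, all of them in Hspa1a, and 66.3% of those of Hspa1a occur elsewhere. Counts of the pair rest on the rest of each transcript if reads with several positions were dropped, which the sources used here do not give.

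**Figure D3:**
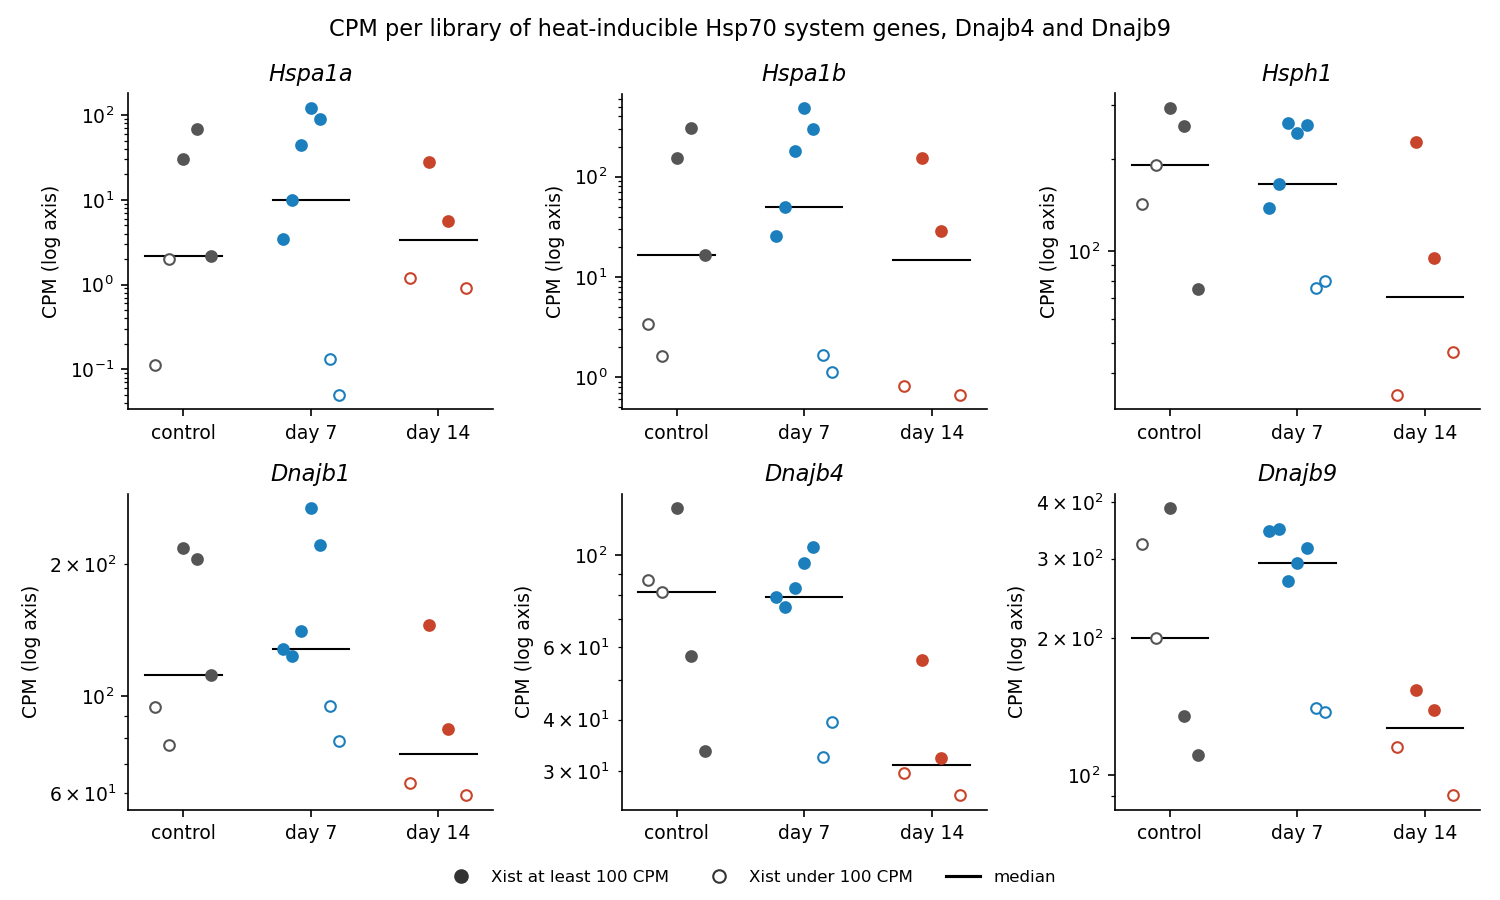
CPM on a log axis for Hspa1a, Hspa1b, Hsph1, Dnajb1, Dnajb4 and Dnajb9 in each library of control, day 7 and day 14; open circles are the 6 libraries with Xist under 100 CPM, bars are medians, and the library at 0 CPM for Hspa1a is drawn at the bottom of its panel. Open circles are lowest in each group for Hspa1b and Dnajb1, and span 0.665 to 3.37 CPM for Hspa1b.

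Ranked by the pooled SD of log2(CPM + 1) within groups, Hspa1b stood at place 3 and Hspa1a at place 7 of 8440 genes that averaged 10 CPM or more, with SDs of 3.14 and 2.56. The median was 0.224 over all these genes and 0.243 over the 66 members among them. Hsph1 stood at place 190, Dnajb4 at 352, Dnajb1 at 353 and Dnajb9 at 377, and 6 members in all were within the top 5% of the ranking.

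**Figure D4:**
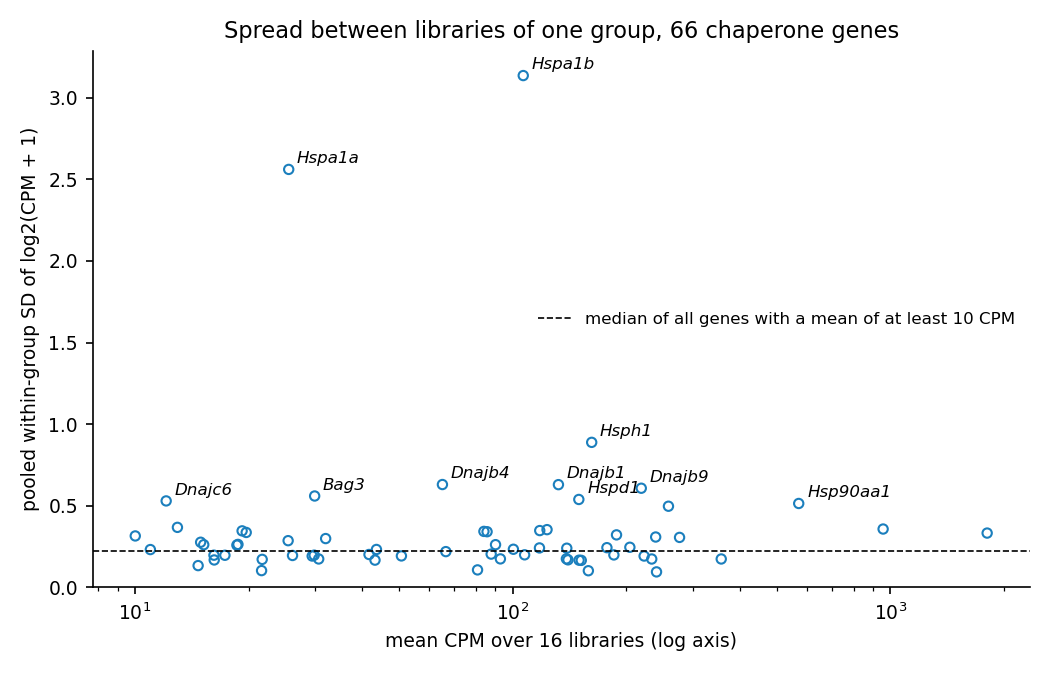
Pooled SD within groups of log2(CPM + 1) (y axis) against mean CPM over 16 libraries (log x axis) for the 66 members that averaged 10 CPM or more. Hspa1b (3.14) and Hspa1a (2.56) stand far above the dashed line, the median of 8440 genes (0.224).

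Hsph1, Hspa4 and Hspa4l belong to the Hsp110 family, which reloads Hsp70 with ATP, and Hspbp1 is another exchange factor. All 4 were below control at both times, with class medians of -0.23 at day 7 and -0.35 at day 14, and none passed the adjusted test. Hsph1 had 143, 191, 294, 258 and 75.2 CPM in control libraries, a median of 166 CPM at day 7 (75.9 to 263 CPM), and 33.9, 227, 95.0 and 46.7 CPM at day 14. Its day 7 libraries 6 and 7, with low Xist, held 75.9 and 80.1 CPM, against 139 to 263 CPM in the other 5. The log2 change at day 14 was -0.93 ± 0.51 (adjusted p = 0.277) and -2.02 ± 0.20 with libraries of low Xist alone (2 libraries a group, adjusted p = 0.0237). With libraries of high Xist alone it was -0.40 ± 0.40 (adjusted p = 0.603). Hspa4 was even across day 7 libraries, 211 ± 10.8 CPM, against 255 ± 45.3 CPM in control, with a log2 change of -0.27 ± 0.11 (adjusted p = 0.168).

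The 3 mitochondrial chaperones had class medians of -0.54 at day 7 and -0.57 at day 14, and 0 passed the adjusted test at either time. Hspd1 (Hsp60), which folds imported proteins in the mitochondrial matrix with its lid Hspe1 (Hsp10), had 218, 330, 186, 178 and 113 CPM in control libraries. It had a median of 123 CPM at day 7 (87.8 to 151 CPM) and 59.0, 226, 101 and 168 CPM at day 14. The highest control values fell in libraries 1 and 2, which also led in markers of dividing cells. The log2 change at day 7 was -0.81 ± 0.26 (adjusted p = 0.095), and -0.45 ± 0.27 without these 2 libraries (adjusted p = 0.496). Hspa9, the mitochondrial Hsp70, averaged 235 ± 11.1 CPM at day 7 against 343 ± 105 CPM in control, a log2 change of -0.54 ± 0.16 (adjusted p = 0.081), and -0.24 ± 0.14 without control libraries 1 and 2 (adjusted p = 0.491). Hspe1 was at -0.68 ± 0.21 at day 14 (adjusted p = 0.080), and at -0.46 ± 0.22 without control libraries 1 and 2 (adjusted p = 0.176). It was at -0.28 ± 0.22 with libraries of high Xist alone (adjusted p = 0.524) and at -1.18 ± 0.22 with those of low Xist alone (adjusted p = 0.075).

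The CCT chaperonin is a ring of 8 different subunits. All 8 subunit genes found in most cells (Tcp1, Cct2, Cct3, Cct4, Cct5, Cct6a, Cct7 and Cct8) were below control at both times, also under the other scalings, and Cct6b, known from testis, was also tested. Control libraries 1 and 2 held the highest control values of Tcp1, Cct5, Cct6a, Cct7 and Cct8, but not of Cct2, Cct3 and Cct4. Cct5 (chr15:31590800-31601804, minus strand) had 190, 196, 173, 172 and 159 CPM in control libraries, a median of 139 CPM at day 7 (128 to 158 CPM), and 104, 166, 118 and 132 CPM at day 14. Every day 7 library was below every control library, while day 14 library 2 lay above control library 5. The gene fell at day 14, with a log2 change of -0.46 ± 0.12 and an edgeR adjusted p of 0.044, and the day 7 change was -0.34 ± 0.10 (adjusted p = 0.084). The day 14 change was -0.28 with libraries of high Xist alone (adjusted p = 0.332) and -0.37 without control libraries 1 and 2 (adjusted p = 0.087). With libraries of low Xist alone it was -0.68 (adjusted p = 0.105). Cct2 had lower values in all 4 day 14 libraries (193 to 239 CPM) than in all 5 control libraries (243 to 285 CPM). Its log2 change was -0.29 ± 0.09 (adjusted p = 0.066). The other 6 subunits had log2 changes from -0.60 (Cct7) to -0.27 (Tcp1) at day 14 and from -0.52 (Cct6a) to -0.14 (Cct4) at day 7.

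The J proteins bring clients to Hsp70 and start its ATP hydrolysis. In class A, whose members resemble bacterial DnaJ most, all 4 were below control at day 14 with a median of -0.39, and 3 under library totals. Dnaja2 (chr8:85537633-85555344, minus strand) had 222, 249, 255, 217 and 184 CPM in control libraries. It had a median of 174 CPM at day 7 (158 to 186 CPM), and 114, 203, 155 and 158 CPM at day 14. It fell at day 14 with a log2 change of -0.52 ± 0.13 (edgeR adjusted p = 0.043), although day 14 library 2 was above control library 5. Dnaja1, an inducible partner of Hspa8, was at -0.44 ± 0.29 (adjusted p = 0.363).

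In class B, 10 of 11 tested members (7 under library totals) were below control at day 14, with a median of -0.46, and 5 of 11 at day 7, with a median of 0.06. None passed the adjusted test. Dnajb4, an inducible partner of Hsp70, had 87.3, 81.5, 130, 57.0 and 33.6 CPM in control libraries, a median of 79.1 CPM at day 7 (32.5 to 104.5 CPM), and 29.8, 55.6, 32.4 and 26.2 CPM at day 14. All 4 day 14 libraries were below 5 of the 7 day 7 libraries, while day 7 libraries 6 and 7, with low Xist, were at 32.5 and 39.6 CPM. The log2 change at day 14 was -1.11 ± 0.36 against control (adjusted p = 0.090) and -1.01 ± 0.34 against day 7 (adjusted p = 0.162).

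Dnajb9 acts in the endoplasmic reticulum and is induced when proteins misfold there. It had 323, 200.1, 387, 135 and 110.3 CPM in control libraries, a median of 293 CPM at day 7 (137 to 348 CPM), and 115, 154, 139 and 90.1 CPM at day 14. Here too day 7 libraries 6 and 7 were the lowest of their group. The log2 change was -1.09 ± 0.33 at day 14 against day 7 (edgeR adjusted p = 0.117). Dnajb1, the main inducible J protein, was lower in the libraries with low Xist than in the others in every group, and had a log2 change of -0.78 ± 0.35 at day 14 against day 7 (adjusted p = 0.307).

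Class C is the largest and most varied, with 26 of 28 members tested. Its median log2 change was 0.02 at day 7 and -0.11 at day 14, and turned to 0.09 at day 14 under library totals. Dnajc15 (chr14:77820681-77875125, minus strand), an inner mitochondrial membrane protein, had 34.5, 42.2, 33.4, 43.0 and 34.0 CPM in control libraries, a median of 30.2 CPM at day 7 (23.6 to 31.5 CPM), and 21.9, 30.4, 24.1 and 26.4 CPM at day 14. All tumour-bearing libraries lay below all control libraries. It fell at day 14 with a log2 change of -0.54 ± 0.14 (edgeR adjusted p = 0.042), against -0.38 ± 0.12 at day 7 (adjusted p = 0.085).

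Dnajc21 (chr15:10446756-10470516, minus strand), known in human cells for a role in maturing the large ribosomal subunit, had 104, 122, 107, 101 and 85.1 CPM in control libraries. It had a median of 83.2 CPM at day 7 (78.7 to 94.3 CPM), and 54.9, 96.1, 72.4 and 64.4 CPM at day 14. It fell at day 14, by a log2 change of -0.53 ± 0.14 (adjusted p = 0.044), with library 2 above the lowest control library. Dnajc9, known in human cells as a histone chaperone, was below every control library (101 to 132 CPM) in all libraries of day 7 (80.5 to 92.9 CPM) and of day 14 (59.6 to 97.2 CPM), with an adjusted p of 0.056 at day 14. Dnajc16 ran the other way, with all libraries of day 7 (21.5 to 27.1 CPM) and of day 14 (21.4 to 22.9 CPM) above all control libraries (16.6 to 20.9 CPM). Its log2 change was 0.33 ± 0.10 at day 7 (adjusted p = 0.089) and 0.24 ± 0.12 at day 14 (adjusted p = 0.239).

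**Figure D5:**
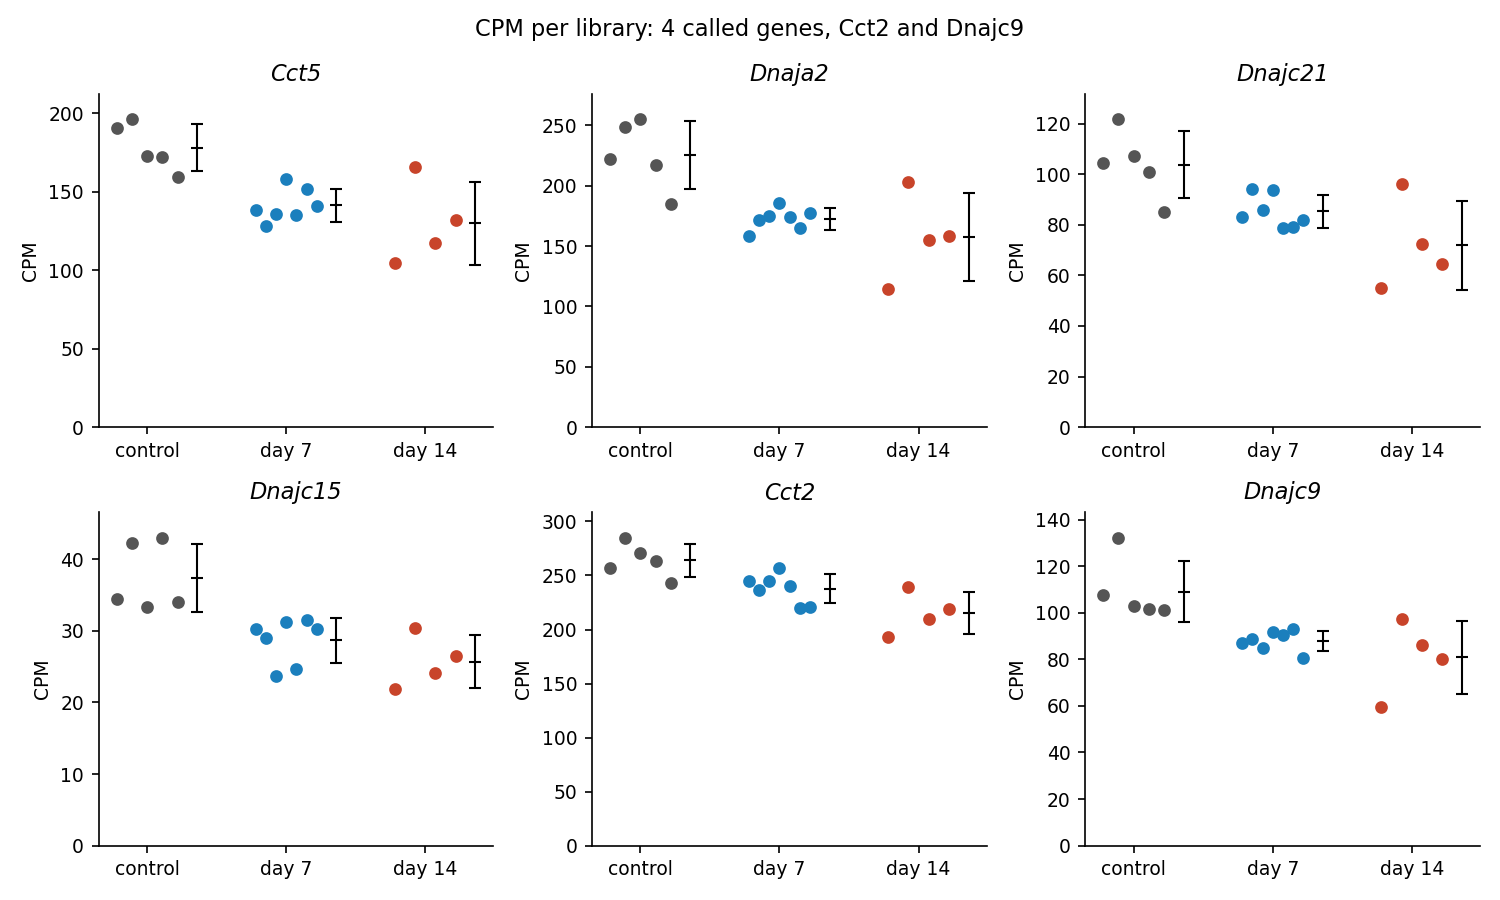
CPM (y axis) in each library of control, day 7 and day 14 for the 4 genes that fell at day 14 (Cct5, Dnaja2, Dnajc21 and Dnajc15) and for Cct2 and Dnajc9, with group mean and SD beside the points. The highest day 14 library is library 2 in all 6 panels, at 166 CPM for Cct5.

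The calls at day 14 depended on single libraries. Without day 14 library 2, 19 members were lower, all 4 named genes among them, beside 5.14% of all genes. Without control library 5, 12 members were lower, beside 3.03% of all genes. Leaving out control library 2 gave 3 (519 of 18151 genes lower), and leaving out day 7 library 3 gave 2 (229 of 17873 genes lower). Each other single library left out gave 0, beside 18 to 223 genes lower of 18144 to 19288 tested. Without control libraries 1 and 2, which led in dividing-cell and neutrophil markers, 1 member was lower, Hspb11, and none of the 4, beside 2.54% of all genes. With libraries of high Xist alone no member was lower, beside 0.439% of all genes. With Xist as a covariate the same 4 genes were lower, beside 2.57% of all genes. DESeq2 called 11 members lower and 1 higher, beside 3.79% and 4.62% of all genes, and limma-voom called 8 lower, beside 2.52%. The 4 genes kept a negative log2 change in each of 28 alternative settings and passed the test in 8 (Cct5, Dnaja2 and Dnajc21) or 9 (Dnajc15) of them, with adjusted p from 0.00485 to 0.407.

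Several of the BAG genes encode cochaperones that release clients from Hsp70. All 6 BAG genes were below control at day 14, with a median of -0.31, but 2 were above it under library totals. Bag1 had 127, 153, 103, 90.9 and 89.0 CPM in control libraries, a median of 79.5 CPM at day 7 (71.7 to 94.3 CPM), and 54.2, 89.7, 79.5 and 88.6 CPM at day 14. Its log2 change was -0.53 ± 0.16 at day 14 (adjusted p = 0.077). Bag3, the stress-inducible BAG protein, was at 14.7 and 18.4 CPM in control libraries 5 and 4 and at 37.1 to 39.4 CPM in the other 3. In day 7 libraries 6 and 7 it was at 15.9 and 17.2 CPM, against 32.3 to 45.3 CPM in the other 5.

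Of 9 small heat shock protein genes, which also include Hspb11 and Hspbap1 by symbol, 6 were tested and most were scarce. Hspb1 (Hsp25 in mice), a small heat shock protein known for heat induction, did not exceed 1.09 CPM in any library. Of its 50-base stretches 50.1% also occur in other genes, so its level is less certain. Hspbap1 was above control at day 14 with a log2 change of 0.51 ± 0.19 (adjusted p = 0.128), and Hspb11 below it with -0.61 ± 0.19 (adjusted p = 0.083). The spread of the heat shock factors within groups was close to that of the median gene, with pooled SDs of 0.200 for Hsf1 and 0.232 for Hsf2. Hsf1 averaged 105 ± 15.9 CPM in control, 117 ± 17.5 CPM at day 7 and 93.7 ± 7.69 CPM at day 14, and Hsf2 lay between 8.24 and 15.4 CPM in all 16 libraries. Hsf1 differed by -0.32 ± 0.12 between day 14 and day 7, with an adjusted p of 0.224.

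Genes that work with the members were taken from the lists. Of 31 cochaperones and partners that the rule leaves out, 30 were below control at day 14, with a median of -0.30, and 23 under library totals. Of them Cdc37, which loads kinases onto Hsp90, fell with 103 ± 11.4 CPM at day 14 against 159 ± 18.4 CPM in control (adjusted p = 0.018), and was not called under library totals (adjusted p = 0.053). Fkbp5, a glucocorticoid-inducible Hsp90 cochaperone, rose to 122 ± 63.4 CPM at day 14, against 48.7 ± 6.57 CPM at day 7 and 58.4 ± 6.22 CPM in control (adjusted p = 0.012 and 0.030). With libraries of high Xist alone its log2 change against control was 0.08 (adjusted p = 0.815), where that with all libraries was 1.06, and without control libraries 1 and 2 the adjusted p was 0.053. Of 5 prefoldin subunits tested, which hand actin and tubulin to CCT, Pfdn1 and Pfdn2 fell at day 14 (adjusted p = 0.044 and 0.048), and neither was called under library totals or without control libraries 1 and 2. Of 11 chaperones of the endoplasmic reticulum that are not members, all were below control at day 14, also under library totals, with a median of -0.59. The median was -0.29 with libraries of high Xist alone and -0.35 without control libraries 1 and 2, with 10 of 11 below control in each. Of these genes Hspa5 (BiP) fell with 320 ± 70.8 CPM against 505 ± 127 CPM (adjusted p = 0.049). It was not called under either other scaling or without control libraries 1 and 2.

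The list of 23 genes known to be induced by HSF1 holds 15 members and 4 of the cochaperones above, so that it is no separate group. Of the 23, 20 were below control at day 14 (19 under library totals), with a median of -0.51. The median was -0.19 with libraries of high Xist alone (16 of 21 below control) and -0.78 with those of low Xist alone. Of the 8 that are not members, 6 were below control, with a median of -0.44. The 11 immediate early genes, which respond within minutes to stimulation or handling, were all below control at day 14 (9 under library totals), and Ier2, Btg2 and Atf3 fell. Atf3 was not called without control libraries 1 and 2 (adjusted p = 0.145). Against day 7, Jun fell with 363 ± 49.4 CPM at day 14 against 912 ± 375 CPM at day 7 (adjusted p = 0.032). Day 7 libraries 6 and 7, which were lowest in Hsph1, Dnajb4 and Bag3, were also lowest in Jun, at 397 and 417 CPM against 900.1 to 1302 CPM in the other 5. The part of these genes in the members' differences was not tested.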

How the data were processed

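RNA sequencing of 16 libraries was analysed from whole-number read counts per gene, deposited by the authors in a table with no normalization. Per the submitters' processing notes the tools were bcl2fastq 2.20.0.422, cutadapt 1.8.1 and HTSeq 0.6.1 with genome build mm10. The aligner, read layout, strand setting and handling of reads with several positions are not given in the sources used here, so members that overlap a gene on the other strand (such as Cct7, Cct8 and Tcp1) or share sequence with copies (Hsp90aa1, Hspa8, Hspd1) are less certain. Rows that name no gene were left out of library sizes. A gene of the lists is not reported here.

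Groups were taken from the labels, with 1 library per mouse as the design text counts them. The members, classes, lists and named genes were chosen with earlier results of these data known. Named were genes called in a comparison, a panel of 20 well-known members, the 3 most abundant of each class, and per comparison the 5 highest and 5 lowest log2 changes with at least 10 CPM; other members are given where a class is described or where libraries did not overlap, and were picked after their values were seen.

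Tests used edgeR 4.0.16 (R 4.3.3): trimmed mean scaling, filterByExpr, a quasi-likelihood fit over all 16 libraries, contrasts of 2 groups, and Benjamini-Hochberg adjustment over 18430 genes with a threshold of 0.05. A standard error is the log2 change over the square root of F. CPM are scaled counts, and RPKM divide them by merged exon length in GENCODE M21. The script was tested on simulated data. DESeq2 1.42.0, limma 3.58.1, other scalings and filters, omitted libraries and a replicate block were tried. Python 3.11.15, pandas 2.3.3 and Matplotlib 3.10.9 made tables and plots.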

Additional observations from a re-analysis of the deposited data

Results flagged for a closer look

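In 8 of 135 groups of named members looked at, 1 library stood apart from the rest of its group. The gap was one that chance gives in about 1 in 20 groups, so the count of 8 is close to what chance alone would give. The cause was not tested for any of them. Day 7 library 4 was the highest of its group for Hsp90ab1 (2210 CPM, next 1695 CPM) and for Hspe1 (153.8 CPM, next 117.1 CPM), and was also the library with the highest Hspa1a and Hspa1b. Bag6 was at 252.9 CPM in day 14 library 1 (next 198.9 CPM), while Dnajc27 was lowest at 12.69 CPM in day 14 library 2 (next 15.63 CPM) and Hsf2 at 9.131 CPM in day 14 library 4 (next 10.96 CPM). Dnajc6 was highest at 14.98 CPM in day 7 library 7 (next 10.38 CPM). In control, Dnajc1 was at 155.1 CPM in library 4 (next 132.5 CPM) and Hspa14 at 96.65 CPM in library 2 (next 79.18 CPM), the library with the highest markers of dividing cells.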

How the results depend on the processing

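The 4 members lower at day 14 against control became 0 under library totals, beside 0.543% of all genes. A replicate block also gave 0, beside 21 of 18430 genes, and so did no filter, beside 210 of 22927. With the 2 groups alone 0 of 16298 genes were called lower, so its count of 0 is not particular to members. The 4 became 8 with limma-voom and 11 with DESeq2, which also called 1 higher, beside 2.52%, 3.79% and 4.62% of all genes. Library totals called 2 higher, beside 3.79% of all genes. Leaving out 1 library gave 0 to 19 lower, and 0 for most choices of the library, beside 18 to 999 of all genes. Leaving out control libraries 1 and 2 gave 1, beside 2.54% of all genes. At day 7, DESeq2 called 15 lower and 1 higher, beside 5.99% and 2.71% of all genes, and leaving out 1 library gave 0 to 13 lower and 0 to 1 higher, the highest without control library 5, where 5.58% and 2.33% of all genes were called. Against day 7, day 14 had 1 member lower with DESeq2, beside 1.94% of all genes. The 2 groups alone also gave 1 of 81 members, beside 396 of 17014 genes. Leaving out 1 library gave 0 to 1, beside 8 to 318 of all genes. The replicate block also called 0 members at day 7, beside 29 of 18430 genes lower and 6 higher. It called 0 between the times, beside 19 lower and 9 higher. Replicate numbers were not taken to pair mice, since correlations between same-numbered libraries ran from -0.310 to 0.309.

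The median change at day 14 moved to -0.10 under library totals. Against day 7 it reversed to 0.068 under library totals. Refits chosen after seeing the data used Xist, whose low state in control fell only in libraries 1 and 2. As a covariate it gave 1 member lower at day 7 (Stip1), and so did libraries of high Xist alone, which gave 0 lower at day 14, a median of 0.00057 against day 7, and a log2 change of 0.020 for Hsp90aa1 at day 14. Libraries of low Xist alone gave 2 lower at day 14 (Dnajb4 and Hsph1), beside 0.131% of all genes, and a median of -0.49. The day 14 median against control was -0.13 with libraries of high Xist alone and -0.16 without control libraries 1 and 2. The cause was not tested. With 4 to 7 libraries a group and the spread between them, changes of Hspa1a and Hspa1b under several log2 units could not be detected at this depth.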
